A study of Mus musculus with 32 samples.

Results

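Endothelial cells (ECs) sorted from pancreatic islets 1 week after withdrawal of doxycycline (1wk WD, 5 samples) were compared with ECs of mice that never received it (No Dox, 4 samples), 9 of the 32 RNA-sequencing samples of the study. The samples were taken by their labels alone, and genes entered the comparison at a mean score of at least 20 in either group, which kept 14167 of 22850. All mice were adults with 3 transgenes, RIP-rtTA, TetO-VEGF-A and MIP-GFP, so the No Dox ECs carried them as well. RIP-rtTA places the doxycycline-controlled activator under the rat insulin promoter, TetO-VEGF-A is the human VEGF-A that it switches on, and MIP-GFP marks β cells through the mouse insulin promoter. The 1wk WD mice had doxycycline (Dox) in the drinking water for 1 week and then none for 1 week. Dox itself was thus given to one group only, and its effect on ECs cannot be told apart from that of the transgene. Islets of several mice were pooled for each sample, dispersed, and sorted for CD31, the surface protein encoded by *Pecam1*. The insulin promoters direct the transgenes to β cells, so that ECs meet VEGF-A as a protein made by their neighbours. A single EC sample at 1wk Dox was also at hand, and its score stands beside the groups without a test. The question behind the comparison was how islet ECs differ from those of untreated mice 1 week after Dox was withdrawn.

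VEGF-A is the main growth and survival factor of capillary endothelium. It binds the receptor tyrosine kinases VEGFR2 (*Kdr*), which carries most of the signal, and VEGFR1 (*Flt1*), which acts largely as a decoy, with neuropilins as co-receptors. ECs of the islet form dense, fenestrated capillaries on a basement membrane which they lay down themselves and on which β cells rest, and they are wrapped by pericytes. ECs also respond to bone morphogenetic proteins (BMPs) through ALK1 (*Acvrl1*) and endoglin (*Eng*), whose signal runs through SMAD1, SMAD5 and SMAD9 and switches on the ID genes and the inhibitors SMAD6 and SMAD7.

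Values are the normalized expression scores of the authors, with 1 as the lowest. Differences are given on the scale of log2(score + 1), 1wk WD minus No Dox, with the standard error (SE) of the fit. A gene was called at a fold change of at least 2 and a Benjamini-Hochberg adjusted p under 0.05 in limma. By that measure 250 genes were called, 1.76% of those tested, of which 181 (1.28%) were higher and 69 (0.487%) were lower at 1wk WD. The count fell to 75 without No Dox sample 3, 76 without No Dox sample 1 and 138 without No Dox sample 2, and to 76 without the trend of the spread with expression. At any fold, 323 genes (2.28%) were higher and 230 (1.62%) lower at an adjusted p under 0.05. The samples of the groups did not overlap in 10.7% of all genes tested, and in 209 of the 250 called. The median difference over all genes was 0.003. Of the genes called higher 23 had a No Dox mean under 20 and were tested only through their 1wk WD scores, and of those called lower 5 were tested only through No Dox. Such genes had to differ to be tested at all, so that they add nothing to a count. Of 79 called genes chosen for the text 29 kept the call without each sample in turn, while 45 lost it without No Dox sample 1 and 46 without No Dox sample 3. A gene with only a clone name is counted among the 79 but not named.

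**Figure D1:**
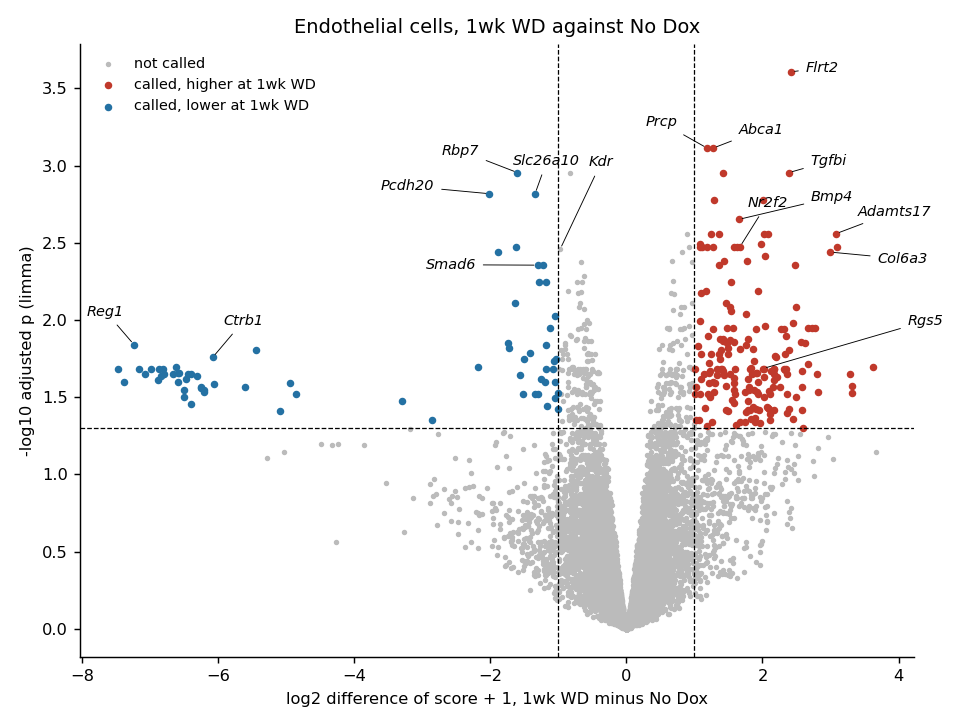
Difference of each of the 14167 genes between 1wk WD (5 samples) and No Dox (4 samples) ECs on the log2 scale, against −log10 of the adjusted p from limma. Dashed lines mark the 2-fold change and the adjusted p of 0.05, red points are the 181 genes called higher, blue points the 69 called lower, and *Flrt2* has the smallest adjusted p.

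The EC identity of all samples was clear. Scores of *Cdh5*, the cadherin of endothelial junctions, were 32793, 39050, 42281 and 39169 at No Dox and 39298, 42859, 37360, 40498 and 47090 at 1wk WD, a difference of 0.11 (SE 0.105, adjusted p = 0.55). *Pecam1*, the gene of the sorted antigen, differed by 0.05 (SE 0.106, adjusted p = 0.807). All 15 endothelial markers were above the lowest score in all samples. Their summed score was 530510 to 578166 at No Dox and 444829 to 497377 at 1wk WD, lower in every 1wk WD sample than in any No Dox sample. Of these 15 markers none was called, while *Kdr* and *Eng* passed the adjusted p without reaching 2-fold. An unadjusted p under 0.05 was reached by 6 of them and by 21.9% of all genes tested. Macrophage markers summed to 626 to 769 at No Dox and 570 to 985 at 1wk WD, with none of 5 tested called or at an unadjusted p under 0.05.

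Markers of other cell types moved with the groups. Pericyte and smooth muscle markers summed to 7650, 13249, 6957 and 15813 in No Dox samples 1 to 4 and to 56205, 23548, 19941, 79836 and 26196 in 1wk WD samples 1 to 5, with 1wk WD samples 1 and 4 the highest. These sums are mostly *Rgs5*. The mean log2 score of the same markers, in which each counts alike, was 8.06 to 9.28 at No Dox and 9.08 to 10.63 at 1wk WD, so that the groups overlapped. All 10 of these markers were above the lowest score in every sample. Of them *Rgs5*, *Abcc9* and *Des* were called higher, each a call that was lost when any of 2 or more samples was left out, and *Pdgfrb*, *Notch3* and *Cspg4* differed by 1.76, 1.65 and 0.47 with adjusted p of 0.0645, 0.0565 and 0.334 and overlapping groups. Acinar enzyme genes went the other way. Their 12 markers summed to 114934, 1980029, 99803 and 72178 at No Dox and to 72520, 748, 1196, 1126 and 1221 at 1wk WD, and 11 were called lower. These calls rest on few samples. The 10 of them reported by name all lost the call without No Dox sample 1, and none of the 12 was called without 1wk WD samples 3 and 4 or with macrophage samples in the fit, where the medians were -5.69 and -6.62. No Dox sample 2 held by far the most acinar transcript, at 5.67% of its total score, and 1wk WD sample 1 was in the range of the other No Dox samples. The acinar genes reported by name also scored lower at 1wk WD in sorted macrophages, as given with the largest falls below. Whether these transcripts come with other cells or as free RNA in the sort was not tested, and in such bulk samples fewer cells of a type and less RNA per cell cannot be told apart. Leaving out 1wk WD samples 1 and 4 gave 102 genes higher and 88 lower, and leaving out No Dox sample 2 with 1wk WD sample 1 gave 89 higher and 58 lower. With the mean level of the pericyte and smooth muscle markers as a term in the fit, or that of the acinar markers, the single gene called was *Flrt2* in each. On principal components 1wk WD samples 3 and 4 stood farthest from the rest, and without both 171 genes were called, 141 of them among the 250.

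**Figure D2:**
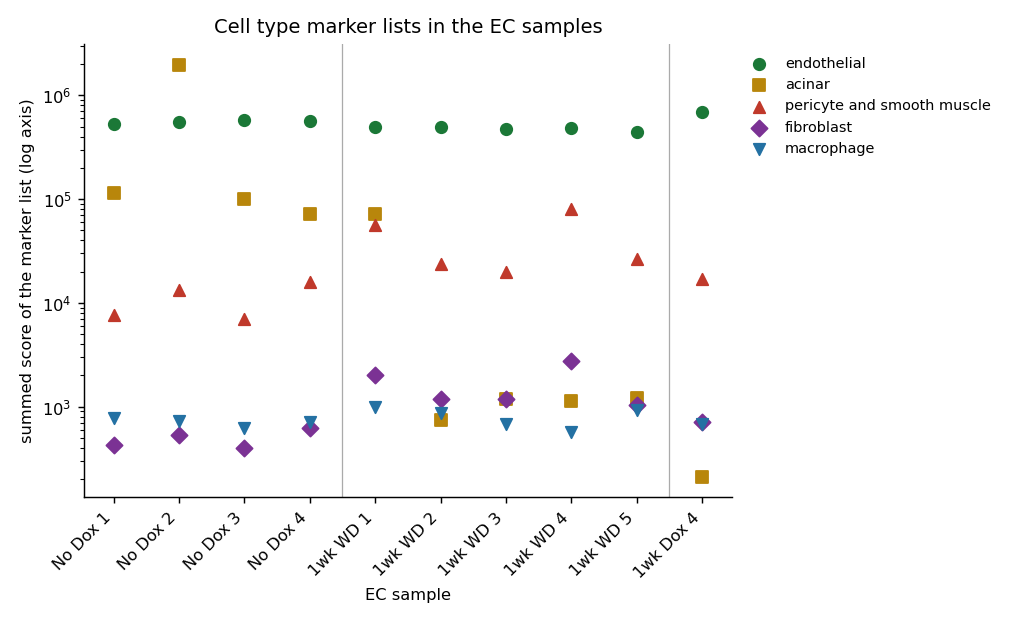
Summed score of 5 cell type marker lists (log axis) in each EC sample, with the 4 No Dox samples on the left, the 5 1wk WD samples in the middle and the single 1wk Dox sample on the right. Endothelial markers summed to 530510 to 578166 at No Dox, 444829 to 497377 at 1wk WD and 697830 in the 1wk Dox sample. Pericyte and smooth muscle markers are highest in 1wk WD samples 4 and 1, and acinar markers are highest in No Dox sample 2.

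The change with the smallest adjusted p was in *Flrt2*, which encodes a transmembrane protein that is shed and acts in cell adhesion and in repulsive guidance through UNC5 receptors. It lies on chromosome 12 from 96930436 to 97023425 in mm9. Its scores were 1028, 1275, 1021 and 1426 at No Dox and 7625, 5151, 5735, 9310 and 4708 at 1wk WD, against 6175 in the 1wk Dox sample. The groups were far apart, with every 1wk WD sample at more than 3 times the highest No Dox sample. *Flrt2* rose by 2.42 (SE 0.192, adjusted p = 0.000247), and it was called without each sample in turn. With macrophage samples sharing the estimate of the spread, the adjusted p was 0.196, and with the pericyte and smooth muscle marker level in the fit the difference was 1.85 with an adjusted p of 0.0081.

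The other genes with the smallest adjusted p also had narrow groups. *Tgfbi*, an extracellular matrix protein induced by TGF-β, scored 105, 130, 144 and 114 at No Dox and 641, 671, 511, 447 and 1125 at 1wk WD, and rose by 2.39 (SE 0.249, adjusted p = 0.00111). *Abca1*, the transporter that hands cholesterol to apolipoproteins, scored 4000, 4765, 4646 and 5232 against 12111, 11350, 8948, 10944 and 13236 and rose by 1.27 (SE 0.122, adjusted p = 0.00077). *Prcp*, a carboxypeptidase that cleaves angiotensin peptides and activates prekallikrein on the endothelial surface, scored 1209, 1669, 1571 and 1322 against 3473, 3017, 3338, 3138 and 3337 and rose by 1.19 (SE 0.114, adjusted p = 0.00077). In none of these genes did the groups come near each other. *Myof*, the membrane repair protein myoferlin, scored 774, 1165, 811 and 784 at No Dox and 2382, 2191, 1995, 2229 and 2919 at 1wk WD, a rise of 1.42 (SE 0.151, adjusted p = 0.00111). These 4 genes were called without each sample in turn. In the 1wk Dox sample *Tgfbi* scored 525, *Prcp* 3951 and *Myof* 1816, each above the No Dox samples, and *Abca1* 5727, which was above the No Dox samples and below the 1wk WD samples.

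Among the genes that fell, *Rbp7*, a retinol-binding protein found in capillary endothelium, scored 685, 552, 816 and 660 at No Dox and 254, 241, 210, 181 and 225 at 1wk WD, a difference of -1.60 (SE 0.171, adjusted p = 0.00111). *Pcdh20*, a protocadherin, went from 311.0 ± 71.8 (SD, n = 4) to 75.2 ± 9.42 (SD, n = 5), a difference of -2.02 (SE 0.228, adjusted p = 0.00152). *Slc26a10*, a member of the anion transporter family SLC26, went from 1310.8 ± 190.2 (SD, n = 4) to 516.4 ± 76.0 (SD, n = 5), a difference of -1.34 (SE 0.152, adjusted p = 0.00152). All 3 were separated by group and called without each sample in turn. *Ntf3*, the neurotrophin NT-3, scored 1275, 786, 523 and 699 at No Dox and 219, 188, 151, 304 and 215 at 1wk WD and fell by 1.89 (SE 0.261, adjusted p = 0.0036). *Rbp7*, *Pcdh20* and *Ntf3* scored 561, 233 and 615 in the 1wk Dox sample, above all 1wk WD samples, whereas *Slc26a10* scored 127, below them all.

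**Figure D3:**
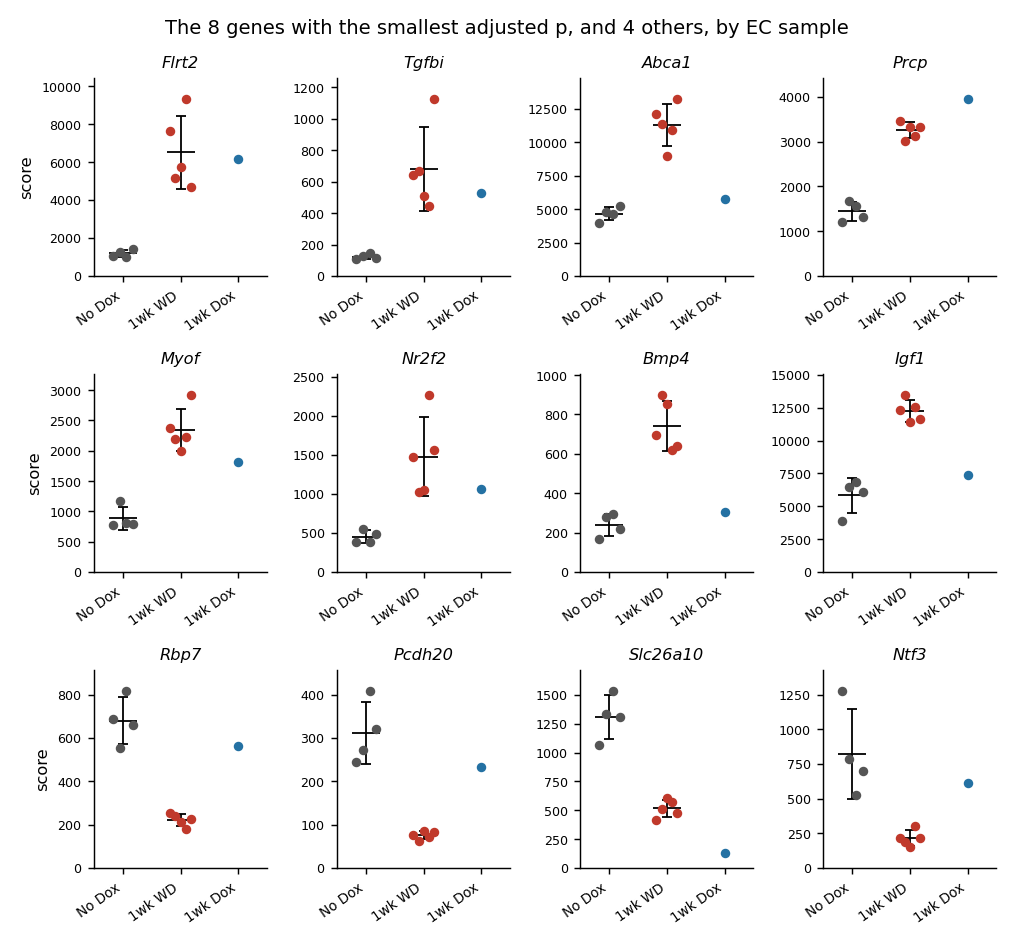
Scores of 12 genes by EC sample (linear axes from 0), with No Dox in grey, 1wk WD in red and the single 1wk Dox sample in blue; black bars are the mean and SD of each group. The No Dox and 1wk WD samples do not overlap in any of the 12, and *Slc26a10* is lowest in the 1wk Dox sample.

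Most of the largest rises were highest in the same samples as the pericyte and smooth muscle markers. The 15 largest rises among called genes without overlap and with a mean score of at least 100 included *Igsf10*, *Cpe*, *Kcne4*, *Eya4*, *Heyl*, *Trpc4*, *Shc3*, *Col3a1*, *Leprel1*, *Sdc2* and *Gucy1a3* beside *Flrt2* and *Tgfbi*. In 12 of these 15 the highest 1wk WD samples were 1 and 4, as they were in 53.0% of all genes called higher and in 12.2% of all genes tested. Without samples 1 and 4 *Heyl*, *Igsf10*, *Trpc4*, *Shc3* and *Sdc2* were no longer called, at differences of 1.94, 2.26, 1.91, 2.10 and 1.62, while the others named here still were. *Heyl*, a Notch target gene of mural cells, scored 57, 173, 55 and 227 at No Dox and 925, 345, 322, 1653 and 612 at 1wk WD. *Gucy1a3*, the α subunit of the nitric oxide receptor guanylate cyclase, scored 180, 397, 249 and 627 against 2214, 1100, 1191, 3970 and 1108. In both genes 1wk WD samples 4 and 1 were the highest. *Rgs5*, a marker of pericytes, scored 4582, 8531, 4449 and 9981 against 40996, 16799, 14734, 63203 and 18398, a difference of 2.01 (SE 0.408, adjusted p = 0.0206), a call lost without No Dox samples 1 or 3. *Cpe*, which trims peptide hormones, rose by 2.77 (SE 0.474, adjusted p = 0.0113). *Leprel1*, a prolyl 3-hydroxylase of collagens, rose by 2.48 (SE 0.361, adjusted p = 0.00441), and its highest 1wk WD samples were 4, at 2107, and 3, at 1152. Of *Leprel1*, *Cpe*, *Kcne4* and *Col3a1* the call held without each sample in turn, but *Sdc2* lost it without any of 5 samples and *Shc3* without any of 6, and *Heyl*, *Igsf10*, *Trpc4*, *Eya4* and *Gucy1a3* lost it without No Dox sample 3.

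The largest falls were in acinar genes. *Reg1*, a secreted protein of acinar cells, scored 2161, 69952, 1368 and 3364 at No Dox and 907, 8, 11, 20 and 21 at 1wk WD, a difference of -7.24 (SE 1.33, adjusted p = 0.0144). *Ctrb1*, chymotrypsinogen, scored 57877, 925212, 46657 and 37771 against 30074, 537, 868, 713 and 653, a difference of -6.08 (SE 1.17, adjusted p = 0.0174). *Dmbt1*, *Try4*, *Klk1* and *Try10* differed by -6.99, -6.63, -6.41 and -5.44 and were called lower as well. *Try10* had a 1wk WD mean of 5.8, under the minimum of 20, and was tested only through No Dox. The call of *Reg1* held without each sample in turn, but all of the other 5 lost it without No Dox sample 1, *Dmbt1* and *Klk1* also without any of 3 more samples. In all 6 genes 1wk WD sample 1 stood far above the other 1wk WD samples and No Dox sample 2 was the highest of all. The trypsin genes *Try4* and *Try10* belong to a family of near-identical copies, so that reads may be divided among them. *Ppy*, the hormone of islet PP cells, scored 70, 303, 69 and 67 at No Dox and 7, 1, 9, 31 and 21 at 1wk WD, a difference of -3.30 (SE 0.77, adjusted p = 0.0333), which was lost without any of 6 samples. Its 1wk WD mean of 13.8 lay under the minimum of 20, so that it was tested only through No Dox. With a mean score under 100 over the 9 samples *Ppy* is not among the 15 largest falls. The remaining 9 of the 15 largest falls were *Krt80*, *Pcdh20*, *Ntf3*, *Dbp*, *Alpl*, *Car4*, *Adamtsl2*, *Rbp7* and *Inhbb*, from -2.18 in *Krt80*, an epithelial keratin, to -1.56 in *Inhbb*. The call of *Krt80* was lost without any of No Dox samples 1, 2 and 3. In sorted macrophages *Krt80* scored 2601 to 4161, above every EC sample. *Car4*, a membrane-bound carbonic anhydrase of capillaries, fell by 1.63 (SE 0.261, adjusted p = 0.00779), with 1657 and 1493 among its No Dox scores and 987 as the highest at 1wk WD. *Adamtsl2*, a secreted protein that binds fibrillin, fell by 1.62 (SE 0.221, adjusted p = 0.00335), from 3103.8 ± 329.3 (SD, n = 4) to 1053.6 ± 359.7 (SD, n = 5).

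The receptors for VEGF-A were lower at 1wk WD. *Kdr* lies on chromosome 5 from 76328852 to 76374483 in mm9. It scored 101250, 92107, 105159 and 96683 at No Dox and 61402, 58413, 39326, 51315 and 44022 at 1wk WD, a difference of -0.98 (SE 0.134, adjusted p = 0.00348). The groups did not overlap and the fold change was 1.97, just short of a call, which *Kdr* reached in 5 of the 25 alternative settings. Its adjusted p was above 0.05 in 3 others, at 0.158 with macrophage samples in the fit, 0.0989 with the pericyte and smooth muscle marker level and 0.401 with the acinar marker level. *Flt1* scored 138669, 127207, 137191 and 131467 against 83002, 81109, 72250, 99647 and 74998, a difference of -0.71 (SE 0.11, adjusted p = 0.00666). The co-receptor *Nrp1* differed by -0.68 (SE 0.108, adjusted p = 0.00779), from 81755.2 ± 6092.0 (SD, n = 4) to 51229.0 ± 5785.7 (SD, n = 5). *Flt4*, the receptor of VEGF-C, differed by -0.46 (SE 0.0883, adjusted p = 0.0165). With either marker level in the fit none of *Flt1*, *Nrp1* and *Flt4* passed the adjusted p, after quantile normalization *Flt1* and *Nrp1* did not (0.0999 and 0.0844), and *Flt4* did not without No Dox samples 1 or 3. For these 4 receptors every 1wk WD sample was below every No Dox sample. *Nrp2*, the other neuropilin, scored 23445 to 26076 at No Dox and 19649 to 25934 at 1wk WD (difference -0.11, SE 0.0979, adjusted p = 0.553). In the 1wk Dox sample *Kdr* scored 77811 and *Nrp1* 68370, between the groups, and *Flt1* 148373 and *Flt4* 20208, above both. Of the 10 VEGF ligands and receptors none was called, 4 passed the adjusted p and the median was -0.27. Mouse *Vegfa* differed by -0.29 (SE 0.229, adjusted p = 0.467), which says nothing of the human transgene.

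**Figure D4:**
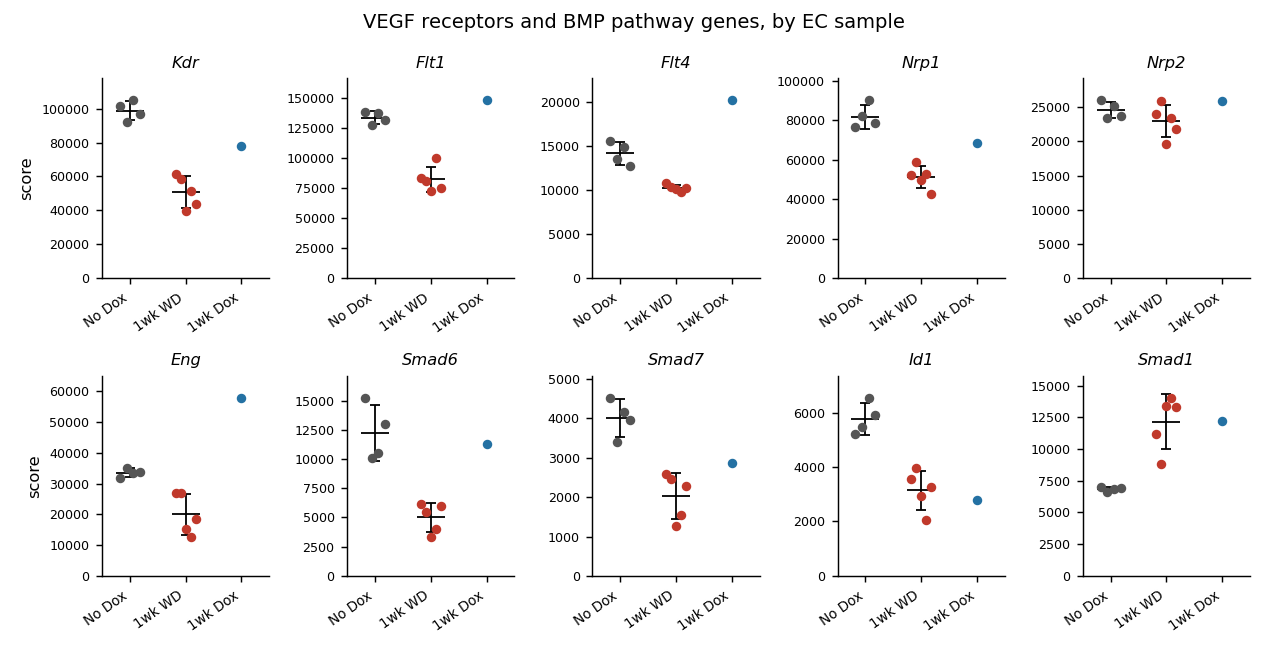
Scores of 5 VEGF receptor genes (upper row) and 5 BMP pathway genes (lower row) by EC sample, on linear axes from 0, with No Dox in grey, 1wk WD in red and the single 1wk Dox sample in blue; black bars are the mean and SD. *Nrp2* is the single gene shown in which No Dox and 1wk WD samples overlap, and *Smad1* the single gene that is higher at 1wk WD.

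Of the 29 TGF-β and BMP pathway genes tested, 6 were lower and 1 higher at an adjusted p under 0.05, and the median was -0.08. The inhibitors *Smad6* and *Smad7* were called, both lower. *Smad6*, which blocks the BMP-activated SMADs, scored 15257, 10098, 10503 and 12981 at No Dox and 6177, 5504, 3358, 3972 and 6007 at 1wk WD and fell by 1.31 (SE 0.19, adjusted p = 0.00441). *Smad7*, the inhibitor of both TGF-β and BMP receptors, scored 4531, 3390, 4176 and 3966 against 2599, 2461, 1263, 1559 and 2276 and fell by 1.03 (SE 0.2, adjusted p = 0.0178). In both inhibitors the groups were separate, though *Smad7* lost its call without any of 4 samples. The target *Id1* scored 5208, 5463, 6554 and 5897 against 3547, 3965, 2920, 2050 and 3260 (difference -0.91, SE 0.166, adjusted p = 0.0141). *Id3* differed by -0.60 (adjusted p = 0.0365), *Smad9* by -0.96 (adjusted p = 0.0299) and *Eng* by -0.81 (adjusted p = 0.0423), all short of 2-fold. *Eng* scored 31784 to 35151 at No Dox, 26868 and 26786 in 1wk WD samples 1 and 2, and 12674 to 18324 in the other 3. *Acvrl1*, the receptor ALK1, differed by -0.54 and missed the threshold (adjusted p = 0.0534). The signal carrier *Smad1* was higher by 0.81 (SE 0.13, adjusted p = 0.00817), with 6609 to 7023 at No Dox and 8804 to 14062 at 1wk WD. The ligand *Bmp4* rose, from 166, 277, 292 and 219 to 694, 898, 855, 619 and 641 (difference 1.65, SE 0.198, adjusted p = 0.00223), whereas *Inhbb*, the β subunit of activin B, fell by 1.56 (SE 0.33, adjusted p = 0.0228) and lost that call without any of the 4 No Dox samples.

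Promoters are shown of *Flrt2*, which was called, and of 3 receptors that passed the adjusted p short of 2-fold. Each is given as the 250 bases before the transcription start in RefSeq on GRCm38.p6, printed 5′ to 3′ on the strand of the gene. Capitals mark GGAAGT, the core of ETS factor sites, read on either strand, in *Kdr* (chr5:75978456-75978705, minus strand), *Flt1* (chr5:147726012-147726261, minus strand) and *Eng* (chr2:32646345-32646594, plus strand), and the E-box CACGTG in *Flrt2* (chr12:95691976-95692225, plus strand).
Kdr: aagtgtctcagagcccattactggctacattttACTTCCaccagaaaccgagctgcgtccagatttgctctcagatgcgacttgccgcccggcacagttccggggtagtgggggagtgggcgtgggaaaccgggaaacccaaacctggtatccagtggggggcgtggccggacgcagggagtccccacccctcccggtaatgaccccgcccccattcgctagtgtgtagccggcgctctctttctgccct
Flt1: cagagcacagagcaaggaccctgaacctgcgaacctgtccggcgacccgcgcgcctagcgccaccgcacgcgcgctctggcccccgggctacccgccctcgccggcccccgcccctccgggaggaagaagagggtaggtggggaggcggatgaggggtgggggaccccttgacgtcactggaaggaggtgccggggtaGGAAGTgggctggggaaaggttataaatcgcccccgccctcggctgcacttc
Eng: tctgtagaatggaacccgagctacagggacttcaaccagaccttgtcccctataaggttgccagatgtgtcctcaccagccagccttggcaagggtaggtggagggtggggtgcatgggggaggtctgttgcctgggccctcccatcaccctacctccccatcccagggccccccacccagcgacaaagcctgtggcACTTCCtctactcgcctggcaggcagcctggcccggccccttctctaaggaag
Flrt2: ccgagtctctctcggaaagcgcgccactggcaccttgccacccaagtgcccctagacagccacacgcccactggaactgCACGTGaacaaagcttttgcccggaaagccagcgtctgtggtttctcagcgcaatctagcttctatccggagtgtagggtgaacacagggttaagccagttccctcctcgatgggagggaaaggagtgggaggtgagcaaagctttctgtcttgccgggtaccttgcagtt
The marked letters begin 217, 52, 53 and 171 bases before the start, in that order, and the E-box in *Flrt2* also holds ACGTG, the core of hypoxia elements. The sequence of *Flt1* also holds TGACGTCA, which is not marked. Such a match describes letters and not a bound site. GGAAGT occurred in 22.6% of the 9911 tested genes with a promoter in the table, in 13.2% of the 121 called higher and in 18.9% of the 53 called lower. CACGTG occurred in 8.3%, 9.9% and 1.9% of the same groups, ACGTG in 21.0%, 14.9% and 9.4%, and TGANTCA, the site of AP-1, in 4.4%, 5.0% and 3.8%. TGACGTCA, the element bound by CREB, occurred in 2.7%, 1.7% and none. The NF-kB motif was in 0.4% of all and in none of the called. All were searched on both strands.

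Genes of tip cells, the leading cells of a sprout that VEGF-A induces, were mostly without a call. *Apln*, the ligand apelin, scored 799 to 1057 at No Dox and 769 to 1050 at 1wk WD, against 4414 in the 1wk Dox sample. *Esm1*, *Angpt2* and *Dll4* differed by -0.31, -0.29 and -0.29, with adjusted p of 0.234, 0.177 and 0.352. None of these 4 passed the adjusted p. *Angpt2*, the antagonist of angiopoietin 1, had an unadjusted p of 0.0286, and its 1wk WD scores, 1399 to 1883, met the No Dox scores, 1883 to 2251, at a single value. *Ramp3*, the co-receptor that adapts the calcitonin-like receptor to adrenomedullin, fell by 1.18 (SE 0.218, adjusted p = 0.0144), from 2895, 2356, 2785 and 2230 to 1533, 1494, 884, 693 and 1273, a call lost without No Dox samples 1 or 3. *Prnd*, the prion-like protein doppel, rose by 1.08 (SE 0.146, adjusted p = 0.00335), from 1180, 1649, 1081 and 1310 to 3177, 3135, 2343, 2695 and 2373, and scored 7075 in the 1wk Dox sample, but lost the call without No Dox sample 3. *Plaur*, the urokinase receptor, and *Igfbp3* passed the adjusted p without reaching 2-fold, at -0.86 and -0.85. Of the 20 genes 1 was called higher and 1 lower, with a median of -0.21.

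Of 12 genes of venous endothelium tested, 5 were called higher, against 1.28% of all genes, and none lower, with a median of 0.53. The 3 members with a negative difference were *Ephb4*, *Lrg1* and *Slc38a5*, at -0.43, -0.59 and -2.48. None of these passed the adjusted p (0.215, 0.425 and 0.203). *Nr2f2*, the transcription factor COUP-TFII that sets venous identity, scored 384, 549, 379 and 484 at No Dox and 1477, 1029, 1050, 2263 and 1557 at 1wk WD and rose by 1.67 (SE 0.223, adjusted p = 0.00335). *Vwf*, the von Willebrand factor stored in Weibel-Palade bodies, scored 744, 2220, 1101 and 1039 against 2360, 2725, 3065, 3327 and 4111, a rise of 1.38 (SE 0.26, adjusted p = 0.0157). All 5 1wk WD samples lay above No Dox in both genes, though No Dox sample 2 came close in *Vwf*. The adhesion molecules *Selp*, P-selectin, and *Vcam1* rose by 1.58 (adjusted p = 0.0345) and 1.33 (adjusted p = 0.0228), with No Dox scores up to 306 and 450 and 1wk WD scores from 316 and 480. They were the 2 called of 12 genes of leukocyte adhesion, whose median was 0.09. *Vcam1* is also made by mural and stromal cells, and *Nr2f2* was highest in 1wk WD sample 4, which was also highest in pericyte and smooth muscle markers. Without 1wk WD samples 1 and 4 the calls of *Nr2f2*, *Vwf* and *Vcam1* held. With the pericyte and smooth muscle marker level in the fit none of the 5 was called, and *Nr2f2* differed by 1.04 (adjusted p = 0.127). The call of *Nr2f2* held without each sample in turn, while that of *Selp* was lost without any of 6 samples, that of *Vcam1* without any of 4 and that of *Vwf* without No Dox samples 1 or 3.

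Of 15 arterial genes 1 was called higher and 1 lower, with a median of 0.14. *Alpl*, alkaline phosphatase, scored 423, 596, 594 and 578 at No Dox and 159, 289, 165, 74 and 209 at 1wk WD and fell by 1.72 (SE 0.32, adjusted p = 0.0151). That call was lost without No Dox sample 3, and without No Dox sample 2 and 1wk WD sample 1 together. *Mgp*, matrix Gla protein, which binds BMPs, rose by 1.55 (SE 0.36, adjusted p = 0.0328), but its groups overlapped and the call was lost without any of 6 samples. Of 13 genes of capillary fatty acid handling *Rbp7* alone was called. *Cd300lg*, a surface receptor of capillary ECs, differed by -0.62 (adjusted p = 0.0151) and *Gpihbp1*, which carries lipoprotein lipase, by -0.66 (adjusted p = 0.0745). None of 9 genes of fenestrae and caveolae was called, and *Plvap*, the protein of fenestral diaphragms, differed by -0.35 (adjusted p = 0.287). None of 14 junction genes was called either, with *Jam3* lower by 0.91 (adjusted p = 0.0144) and *Tjp1*, the scaffold protein ZO-1, higher by 0.53 (adjusted p = 0.022), both short of 2-fold. At an unadjusted p under 0.05 limma gave 3 genes of the former list and 5 of the latter, against 21.9% of all genes tested.

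Of 15 collagen genes outside type IV, 6 were called higher and none lower, with a median of 1.47. *Col6a3*, a chain of the microfibrils of type VI collagen, scored 15, 18, 14 and 14 at No Dox and 149, 80, 137, 293 and 72 at 1wk WD, a difference of 7.99-fold (SE 0.417 on the log2 scale, adjusted p = 0.00363). Its No Dox mean of 15.2 lay under the minimum of 20, so that it was tested only through the 1wk WD group. *Col3a1*, a fibrillar collagen, scored 55, 104, 65 and 131 against 716, 332, 349, 1060 and 273 and rose by 2.49 (SE 0.402, adjusted p = 0.00817). *Col1a2* rose by 2.31 (adjusted p = 0.0115), *Col1a1* by 2.07 (adjusted p = 0.0363), *Col6a1* by 1.75 (adjusted p = 0.00908) and *Col5a2* by 1.47 (adjusted p = 0.0269). *Col1a1*, whose No Dox mean was at the minimum, lost its call without any of 7 samples and *Col5a2* without any of 3. Sample 4 of the 1wk WD group had the highest score in 5 of these 6 genes and sample 1 in *Col6a1*, and fibroblast markers, which include *Col1a1*, *Col1a2* and *Col3a1*, summed to 403 to 619 at No Dox and 1028 to 2770 at 1wk WD. Without 1wk WD samples 1 and 4, *Col1a2*, *Col3a1*, *Col6a1* and *Col6a3* were still called, *Col1a1* and *Col5a2* were not, and the median was 0.99. With the pericyte and smooth muscle marker level in the fit none was called and the median was 0.28.

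Of 23 genes of the basement membrane 3 were called higher and none lower, and the median was 0.03. *Col4a1*, the main chain of type IV collagen, scored 44318, 55495, 51837 and 54635 at No Dox and 74091, 66180, 53645, 62355 and 51336 at 1wk WD (difference 0.25, SE 0.125, adjusted p = 0.268), with 135553 in the 1wk Dox sample. The 3 called genes were laminins *Lamc3* (rise of 2.45, adjusted p = 0.0105) and *Lama2* (2.15, adjusted p = 0.0271), and *Col4a5* (3.32, adjusted p = 0.0268), which scored 3, 21, 4 and 15 at No Dox and 166, 69, 22, 270 and 86 at 1wk WD. *Lama2* and *Col4a5* were highest in 1wk WD samples 4 and 1 and were not called without them, while *Lamc3* was still called. *Lamc3* and *Col4a5* had No Dox means of 15.2 and 10.8 and were tested only through the 1wk WD group, which leaves *Lama2* as the 1 call that the minimum score did not favour. It was lost without any of 3 No Dox samples. No integrin of 21 was called, and 7 had an unadjusted p under 0.05, against 21.9% of all genes tested. Short of 2-fold, *Itgb3*, which pairs with αv to bind matrix proteins, and *Itga9* were lower by 0.65 (adjusted p = 0.00567) and 0.62 (adjusted p = 0.00849), and *Itga2*, of a collagen receptor, was higher by 0.77 (adjusted p = 0.0447).

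Of 37 matrix proteases 4 were called higher and none lower, with a median of 0.11. *Adamts17* scored 9, 22, 9 and 19 at No Dox and 178, 100, 117, 147 and 91 at 1wk WD and rose by 3.08 (SE 0.386, adjusted p = 0.00276), with 244 in the 1wk Dox sample. *Adamts18* rose by 1.79 (SE 0.321, adjusted p = 0.0132) and *Mmp2*, gelatinase A, by 2.38 (SE 0.448, adjusted p = 0.0157). *Mmp16* had an adjusted p of 0.0497, overlapping groups and a highest score of 408 in 1wk WD sample 3, and lost its call without any of 8 samples. *Timp2*, which inhibits and helps to activate MMP2, rose by 1.10 (SE 0.236, adjusted p = 0.0241). *Timp3*, an inhibitor bound to the matrix, was lower by 0.57 (SE 0.109, adjusted p = 0.0165), with 196505 to 223364 at No Dox and 124361 to 163099 at 1wk WD. *Adamts17*, *Mmp2* and *Mmp16* had No Dox means under 20 and were tested only through the 1wk WD group, which leaves *Adamts18* as the 1 protease whose call the minimum score did not favour. The calls of *Adamts17* and *Adamts18* held without each sample in turn, those of *Mmp2* and *Timp2* did not.

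**Figure D5:**
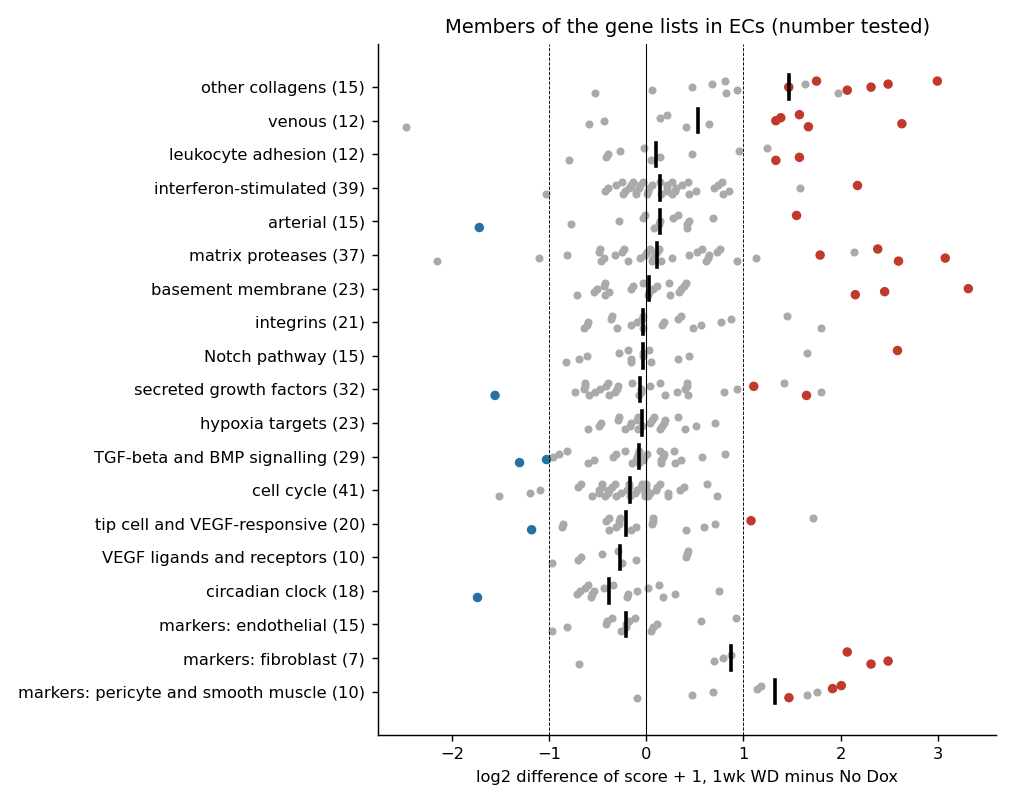
Difference of each member of 19 gene lists between 1wk WD and No Dox ECs on the log2 scale, with the number of members tested in brackets. Red points were called higher, blue points called lower and grey points not called, and black ticks are the list medians, of which those of collagens outside type IV (1.47) and of pericyte and smooth muscle markers (1.32) lie farthest to the right.

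Among 32 secreted growth factors 2 were called higher, *Igf1* and *Bmp4*, and *Inhbb* lower, with a median of -0.06. *Igf1*, the insulin-like growth factor, scored 3900, 6468, 6831 and 6088 at No Dox and 12325, 13462, 11405, 12577 and 11606 at 1wk WD, a rise of 1.11 (SE 0.147, adjusted p = 0.00335) that lost its call without No Dox sample 1. The 1wk WD samples varied little and all lay well above No Dox. Binding proteins of IGF passed the adjusted p in both directions, with *Igfbp3* lower by 0.85 (adjusted p = 0.00644) and *Igfbp4* higher by 0.91 (adjusted p = 0.0201). *Gas6*, the ligand of AXL and MERTK, *Fgf1* and *Csf1*, the macrophage growth factor, were lower by 0.74, 0.64 and 0.48, with adjusted p of 0.022, 0.0377 and 0.0423 and none at 2-fold.

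Of 46 axon guidance genes 5 were lower and 2 higher at an adjusted p under 0.05, with a median of -0.19. *Sema3f*, a semaphorin that binds NRP2, scored 7607, 7798, 8236 and 6868 at No Dox and 5219, 4993, 3078, 2279 and 3564 at 1wk WD and fell by 1.06 (SE 0.207, adjusted p = 0.0185), a call lost without any of 5 samples. *Slit3*, a ligand of ROBO receptors, and *Sema5a* were lower by 0.95 (adjusted p = 0.0157) and 0.85 (adjusted p = 0.0178). *Plxnb1*, the receptor of SEMA4D, rose by 1.01 (SE 0.205, adjusted p = 0.0206), also a call lost without any of 5 samples. No other gene of the list was called. Of 26 Wnt pathway genes *Dkk3* was called, higher by 1.79 (SE 0.419, adjusted p = 0.0334) at No Dox scores of 71, 24, 23 and 27 and 1wk WD scores of 108, 98, 105, 229 and 75, a call lost without any of 6 samples. Of 15 Notch pathway genes *Heyl* was called.

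Of 18 genes of chemokines and their receptors 1 was called in each direction, and the median was 0.14. *Cxcl9*, an interferon-induced ligand of CXCR3, scored 26, 35, 104 and 30 at No Dox and 245, 260, 274, 142 and 97 at 1wk WD and rose by 2.17 (SE 0.441, adjusted p = 0.0206), with No Dox sample 3 inside the 1wk WD range and the call lost without any of the other 3 No Dox samples. *Cxcl10*, another CXCR3 ligand, differed by 1.59 and missed the threshold (adjusted p = 0.114). *Cx3cl1*, fractalkine, which tethers monocytes, fell by 1.00 (SE 0.24, adjusted p = 0.0377), from 2620, 2857, 3283 and 2512 to 1516, 2213, 1126, 799 and 1764, and lost the call without any of 6 samples. *Cxcl12* was lower by 0.77 (adjusted p = 0.0223) short of 2-fold. Of 39 interferon-stimulated genes *Cxcl9* was the single one called, but *Gbp3*, *Oasl2*, *Mx2* and *Iigp1* passed the adjusted p at differences of 0.85, 0.78, 0.79 and 0.69.

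Cell cycle genes were not called in any of 41 members, with a median of -0.17. *Mki67*, the proliferation antigen Ki-67, scored 1852, 3545, 1953 and 2509 at No Dox and 3210, 1525, 1516, 3140 and 959 at 1wk WD, and 16060 in the single 1wk Dox sample. *Top2a* scored 331 to 981 at No Dox, 194 to 896 at 1wk WD and 4173 in the 1wk Dox sample. The No Dox and 1wk WD groups overlapped widely in both genes. *Pcna*, the clamp of DNA replication, was higher by 0.63 (SE 0.151, adjusted p = 0.0377) and short of 2-fold. No gene was called among 23 hypoxia targets, 20 immediate early genes, 21 genes of the unfolded protein response, 11 heat shock genes or 21 heme and redox genes. At an unadjusted p under 0.05, which 21.9% of all genes reached, limma gave 3 genes each of the cell cycle and immediate early lists, 7 hypoxia targets, 5 of the unfolded protein response, 2 heat shock genes and 4 heme and redox genes. Of 18 clock genes *Dbp*, an output factor of the clock, was called, with 571, 847, 849 and 514 at No Dox and 225, 275, 97, 169 and 327 at 1wk WD (difference -1.74, SE 0.318, adjusted p = 0.0141). That call was lost without No Dox sample 3, and without No Dox sample 2 and 1wk WD sample 1 together. Its relative *Hlf* was lower by 0.63 (adjusted p = 0.0221), *Nfil3*, which opposes them at the same sites, was higher by 0.75 (adjusted p = 0.0227), and *Per1*, *Nr1d1* and *Tef* differed by -0.71, -0.68 and -0.57 at adjusted p of 0.184, 0.104 and 0.0543. The time of day of the sorts is not given in the sources used here.

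To learn whether a response was particular to ECs, it was tested against that of islet macrophages (MΦs) from the same kind of mice, with 4 samples at No Dox and 4 at 1wk WD. Both cell types were sorted from dispersed islets, and *Ctrb1* was highest in No Dox sample 2 of each (925212 in ECs, 6456823 in MΦs). Samples of the 2 cell types may thus share pools of mice, but the test took all as independent. The responses differed by at least 2-fold at an adjusted p under 0.05 in 219 of 15603 genes (1.40%). *Tgfbi* scored 11506 to 16232 in No Dox MΦs and 12353 to 15344 in 1wk WD MΦs, and its EC response exceeded that of MΦs by 2.33 (SE 0.297, adjusted p = 0.001). For *Prcp*, *Myof* and *Vwf* the responses differed by 1.02 (adjusted p = 0.0106), 1.37 (adjusted p = 0.00357) and 1.92 (adjusted p = 0.0268). *Ramp3* scored 72 to 185 in No Dox MΦs and 246 to 422 in 1wk WD MΦs, ranges that do not overlap, and its responses differed by -2.48 (SE 0.404, adjusted p = 0.00512). *Nrp1* scored 3599 to 5527 in No Dox MΦs and 4708 to 7294 in 1wk WD MΦs, ranges that overlap, and its responses differed by -1.15 (SE 0.196, adjusted p = 0.00719). The change within MΦs was not tested for either gene. *Smad1* scored 2959 to 3797 in No Dox MΦs and 2195 to 2995 in 1wk WD MΦs, and its responses differed by 1.23 (SE 0.188, adjusted p = 0.00349). For *Flrt2*, *Abca1*, *Rbp7*, *Nr2f2* and *Kdr* the difference from MΦs did not pass the threshold, which does not show that the responses are alike.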

How the data were processed

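Total RNA of sorted CD31+ islet cells was amplified with the NuGEN Ovation kit and sequenced on an Illumina HiSeq. The authors aligned 50 bp paired-end reads to mm9 with TopHat2 2.0 and normalized expression by the TMM method of Avadis NGS. What they deposited is a score per gene and sample, a whole number of at least 1. Read counts do not follow from a score, and the sequencing depth is unknown. The 9 samples had score totals of 31138639 to 34908203, and residuals of the fit had an SD of 0.282 at the median gene (log2). Of the 22850 genes 4720 were at 1 in all 9. Whether a score is scaled by gene length is not given in the sources used here. Tests compared levels within a gene, while sums and shares over several genes may depend on such scaling. Columns that match no sample here (6) were not used, and the identifiers gave back 25 symbols that a spreadsheet had made into dates. Where a symbol named several genes, as 123 did, lists took the gene of highest mean score. Gene coordinates are those of the file and are in mm9.

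Log2(score + 1) of the 9 samples entered a linear model with moderated variances that follow mean expression (limma 3.58.1, R 4.3.3), and p-values were Benjamini-Hochberg adjusted over all 14167 genes. The script was tested on simulated data. The response of ECs minus that of MΦs was tested as an interaction over 17 samples, taken as independent, with no term for pools that ECs and MΦs may share. Samples are pools of mice, and p-values measure the spread between these pools. Named genes were the 15 largest rises and 15 largest falls among called genes without overlap and with a mean score of at least 100, the 8 with the smallest adjusted p, called members of the gene lists, *Kdr* and *Cdh5*, and central members of lists with few calls (*Tjp1*, *Itga2* and *Itga9* were added after their values were seen), and 2 of the genes so chosen are not reported here. The comparison and the gene lists with their members were chosen with earlier results of these data known. Promoters were read from a RefSeq table on GRCm38.p6, in which 9911 of the tested genes had an entry. Alternatives were other pseudocounts, filters, scalings, variance models and sample sets.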

Additional observations from a re-analysis of the deposited data

Results flagged for a closer look

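Samples far from the others of their group were sought for 134 genes chosen for the text in both groups, 268 sets in all. The measure was the gap to the nearest sample as a share of the range on the log2 scale. Of these 38 values passed Dixon's 95% limit, and chance alone passes about 1 in 20 sets. Most were acinar genes, which share their source and are not independent. In No Dox sample 2 the scores were 33393 for *Dmbt1*, 29689 for *Try4*, 15655 for *Klk1*, 925212 for *Ctrb1*, 48100 for *Prss2*, 177586 for *Cpa1*, 163400 for *Cela1*, 41729 for *Cela3b*, 145196 for *Cel* and 74263 for *Clps*, each above the other No Dox samples. The hormone gene *Ppy* was also highest there, at 303. In 1wk WD sample 1 the scores were 907 for *Reg1*, 1199 for *Dmbt1*, 30074 for *Ctrb1*, 25 for *Try10*, 2296 for *Prss2*, 6917 for *Cpa1*, 6220 for *Cela1*, 4196 for *Cela2a*, 1827 for *Cela3b*, 4639 for *Pnlip*, 5172 for *Cel*, 2797 for *Clps* and 7408 for *Cpb1*, each above the other 1wk WD samples.

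Other genes gave single values apart from their group. No Dox sample 1 was low in *Alpl* (423) and *Mmp2* (10) and high in *Dkk3* (71). No Dox sample 2 was high in *Myof* (1165) and *Masp1* (117), and No Dox sample 3 in *Igfbp3* (20682). Among 1wk WD samples, sample 1 was high in *Lamc3* (139) and *Csf1* (617), sample 2 in *Nfil3* (1987), sample 3 high in *Mx2* (1265) and low in *Dapk2* (2351) and *Ptgis* (190), sample 4 high in *Col1a1* (201) and sample 5 in *Tef* (3317).

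The responses of ECs and MΦs differed by the test of the interaction in 13 named genes. EC minus MΦ response was 2.33 for *Tgfbi*, 2.55 for *Leprel1*, 3.28 for *Eya4*, 1.02 for *Prcp*, 1.37 for *Myof*, 1.92 for *Vwf* and 1.23 for *Smad1*. It was -4.29 for *Adamtsl2*, -2.48 for *Ramp3*, -1.15 for *Nrp1*, -1.19 for *Cd300lg*, -1.17 for *Itga9* and -2.43 for *Gas6*. *Adamtsl2* scored no more than 97 in any MΦ sample, so that its MΦ response rests on low scores.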

How the results depend on the processing

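Pseudocounts of 0.1 and 20, median-of-ratios and quantile scaling, array weights, a minimum mean score of 200, no filter, arithmetic means and the single 1wk Dox sample in the fit gave 182 to 291 genes called, each within 1.5 times the 250. Without the trend of the spread 76 genes were called (62 higher, 14 lower), with MΦ samples in the fit 135 (112 and 23), and at an unadjusted p 678 (434 and 244). Leaving out 1 sample at a time gave 75 to 311 genes called, 57 to 213 higher and 14 to 98 lower, with the fewest without No Dox sample 3 (75), then No Dox sample 1 (76) and No Dox sample 2 (138). Of the 79 called genes chosen for the text, 29 kept the call without each sample in turn. The interaction with MΦs gave 92 to 362 genes when 1 sample was left out.

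Other sets were chosen after seeing the data. Without No Dox sample 2 and 1wk WD sample 1, 147 genes were called (89 higher). Without 1wk WD samples 1 and 4, 102 were higher. Without 1wk WD samples 3 and 4, 36 were lower. With the level of pericyte and smooth muscle markers in the fit 1 gene was called (1 higher, 0 lower), as with that of acinar markers (1 higher, 0 lower), while limma had 809 and 214 genes lower at an unadjusted p under 0.05. Both levels differ between the groups and are made of genes under test. The cause was not tested.

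The labels number the samples, but deviations of same-numbered samples correlated at -0.118, -0.213, 0.105 and 0.195, so that the numbers were not taken as pairs. A replicate block gave 283 genes called in ECs and 136 in the interaction. That block joined same-numbered samples within a cell type and never ECs with MΦs.

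Values of the other sign were 0.197 for *Prss2*, 0.071 for *Cpa1*, 0.156 for *Cela1*, 0.060 for *Cela2a*, 0.099 for *Cela3b*, 0.346 for *Pnlip*, 0.540 for *Mki67* and 0.706 for *Top2a* with the acinar marker level in the fit, -0.183 for *Apln* and -0.442 for *Cspg4* with that of pericyte and smooth muscle markers, -0.046 for *Apln* without 1wk WD samples 1 and 4, 0.004 for *Dll4* without 1wk WD samples 3 and 4, and -0.008 for *Pecam1* without No Dox replicate 1, which ranged from -0.008 to 0.092 when 1 sample was left out. Unknown depth limits what a low score can show.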

Other observations

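Genes named here were chosen after their values were seen. *F8*, coagulation factor VIII, which circulates bound to the von Willebrand factor, scored 895, 1011, 1033 and 1170 at No Dox and 2246, 2143, 3595, 3387 and 2172 at 1wk WD, a rise of 1.37 (SE 0.174, limma adjusted p = 0.00276), with 857 in the 1wk Dox sample. *Ptgis*, prostacyclin synthase, scored 77, 54, 35 and 63 against 226, 223, 190, 236 and 224, a rise of 1.97 (SE 0.258, adjusted p = 0.00323), with 511 in the 1wk Dox sample. *Masp1*, a protease of the lectin pathway of complement, rose by 2.00 (SE 0.231, adjusted p = 0.00168), and *Dapk2*, a death-associated kinase, by 1.28 (SE 0.149, adjusted p = 0.00168). In each of these 4 genes all 1wk WD samples lay above all No Dox samples, and the call held without each sample in turn. The 1wk WD scores of *Ptgis* were 190 to 236, in samples whose summed pericyte and smooth muscle markers were 19941 to 79836.

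*Prox1*, the lymphatic transcription factor, passed the adjusted p short of 2-fold and scored 913, 722, 699 and 784 at No Dox and 1065, 1204, 1767, 1306 and 1183 at 1wk WD (difference 0.73, SE 0.155, adjusted p = 0.0232). *Hhex*, a homeobox factor of early endothelium, was also short of 2-fold and differed by 0.68 (SE 0.112, adjusted p = 0.00859). None of 5 tested lymphatic markers was called, and 2 had an unadjusted p under 0.05, against 21.9% of all genes tested. The summed score of the lymphatic markers, which is mostly that of *Flt4*, was 14679 to 17142 at No Dox and 12025 to 12264 at 1wk WD.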
